A study of Patiria miniata with 6 samples.

Results

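Late histone genes of the bat star Patiria miniata, a sea star, were followed in hatched blastulae in which the transcription factor Pm-Tbr, of the T-box family, had been knocked down with a morpholino. The late histone loci are those whose gene name in the authors' deposited table begins, ignoring case, with Pm-Lhh. There are 8 such loci among the 27630 of that table and the 80165 loci that were counted. They comprise 2 H2B loci (Pm-Lhh2bj and Pm-Lhh2ba), 1 H2A locus (Pm-Lhh2af), 2 H3 loci (Pm-LhH3g and Pm-LhH3h) and 3 loci of the linker histone name Pm-LhH1a. The control group held 3 libraries of pooled embryos from zygotes injected with 600 µM of a standard control morpholino antisense oligonucleotide (control MASO), collected at 30 hours post fertilization. The knockdown group held 3 libraries of pooled embryos given 600 µM of the Pm-Tbr MASO and collected at 36 hours. Age and morpholino therefore cannot be told apart in any value below. Embryos of both groups were raised at 15 °C, and only injected embryos of healthy form were kept, so embryos that failed this selection are not represented. The labels name no spawning for any library, and the spread behind each p-value is that of these libraries, which may be technical.

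Histones are the proteins that package DNA. H2A, H2B, H3 and H4 form the nucleosome core, and H1 binds the linker between nucleosomes. Sea urchins, relatives of sea stars, use successive sets of histone genes named cleavage-stage, early and late, and the late set takes over as the embryo passes the blastula stage. Most histone mRNAs made for DNA replication end in a stem-loop instead of a poly(A) tail, and the labels do not say whether these libraries were selected for poly(A) tails. In pooled embryos, fewer cells that use a gene and less RNA per cell cannot be told apart.

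Counts assigned to loci ranged from 25423004 to 26958581 in control MASO libraries and from 17795136 to 28167566 in Pm-Tbr MASO libraries. A further 43.4% to 45.2% of alignments per library fell in several places and were assigned to no locus, which touches gene families with near-identical copies such as histones. Marker loci of the embryo had reads in every library, namely all 4 of ectoderm, all 7 of vegetal, all 7 of mesoderm and all 5 of neuron regulators or products, and all 8 of cilia. Values are counts scaled to a common library total (CPM) on library sizes scaled by TMM, a trimmed mean that offsets differences in composition, and are not corrected for transcript length, so levels are compared between libraries, and a sum or share over loci weights each locus by its length as well as its abundance. Positions follow the authors' table, no label names the genome build behind them, and exon boundaries were not used here.

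At 5 of the 8 late histone loci every Pm-Tbr MASO library lay above every control MASO library, and these were Pm-Lhh2bj, Pm-Lhh2af, the H3 locus Pm-LhH3g and 2 of the 3 Pm-LhH1a loci. Among all 44120 tested loci, the groups failed to overlap with Pm-Tbr MASO higher at 13.3%. In the quasi-likelihood test of edgeR, with p adjusted by Benjamini-Hochberg over all tested loci and a threshold of 0.05, 2 of the 8 rose and 0 fell, where 1.36% of all loci rose, 0.922% fell and 2.28% were called in either direction. An unadjusted p under 0.05 was found at 6 of the 8, against 8832 of all 44120 tested loci. The 2 were Pm-Lhh2bj and 1 Pm-LhH1a locus. Libraries with the same replicate number deviated together across loci, and with that number as a block 4 of the 8 rose and 0 fell, against 5.83% of all loci that rose and 10.1% that were called in either direction. With 1 library left out, 0 or 1 of the 8 was called. The 1 was Pm-LhH1a without control MASO replicate 3, where 100 of all loci were called. It was Pm-Lhh2af without Pm-Tbr MASO replicate 3, where 418 of all loci were called. Without any 1 of the other 4 libraries, 0 of the 8 were called. Calls over all loci were then 0 without control MASO replicate 1 or 2, 13 without Pm-Tbr MASO replicate 1 and 118 without Pm-Tbr MASO replicate 2. The loci added by the block were Pm-Lhh2af and a second Pm-LhH1a locus. DESeq2 called 4 of the 8 higher and 0 lower, against 5.55% of all loci higher and 9.71% in either direction. The authors' deposited table listed the same 4 as higher at a false discovery rate under 0.05, where 5.50% of its loci were. These counts are a description, because names exist only for loci whose CPM exceeded 2 in 3 or more libraries, and a locus low in the controls could enter through the Pm-Tbr MASO libraries alone. Pm-LhH3g did so, with 0 control MASO and 3 Pm-Tbr MASO libraries above that value, and the Pm-LhH1a locus that rose had 1 and 3. Pm-Lhh2af had 2 and 3, and Pm-Lhh2ba had 1 and 2, so these also needed Pm-Tbr MASO libraries to be named. Pm-Lhh2bj, Pm-LhH3h and the remaining Pm-LhH1a loci had 3 and 3.

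**Figure D1:**
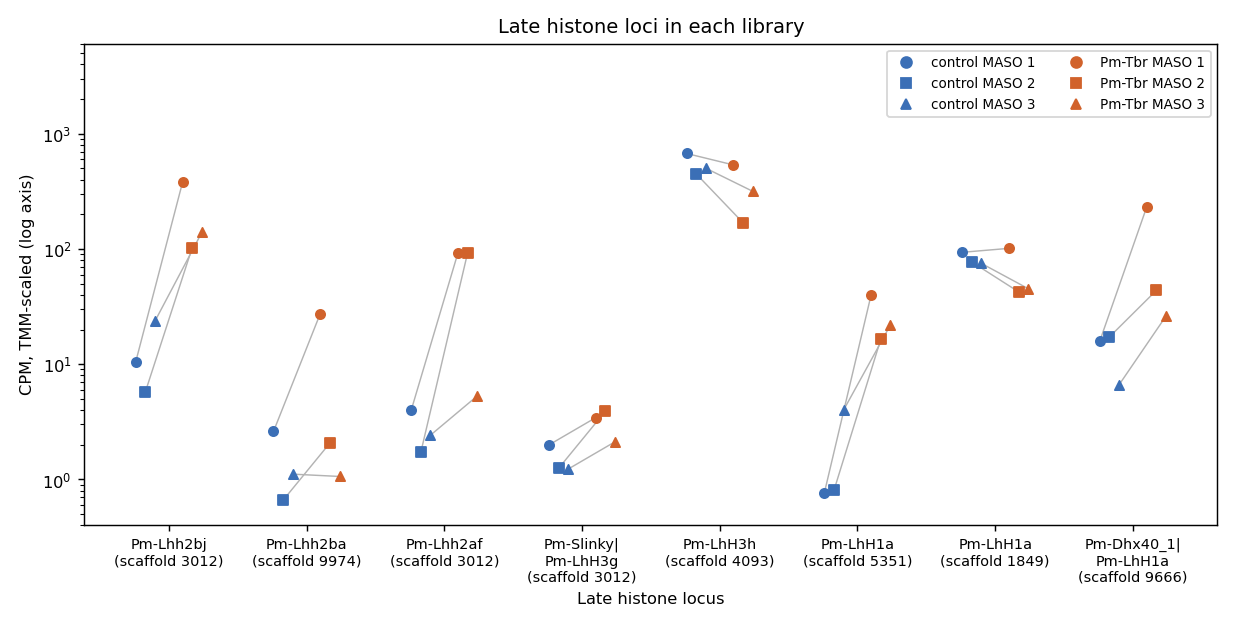
TMM-scaled CPM on a log axis for each late histone locus, with control MASO libraries in blue, Pm-Tbr MASO libraries in orange, 1 marker shape per replicate number and a grey line joining each same-numbered pair. Pm-Lhh2bj lies between 5.77 and 23.7 CPM in controls and between 103 and 379.5 CPM in Pm-Tbr MASO libraries, while the Pm-LhH3h lines run downwards.

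Pm-Lhh2bj, a late H2B gene (gene model PMI_005700), lies on scaffold 3012 from 41127 to 42369 on the plus strand. It had 10.5, 5.77 and 23.7 CPM in control MASO replicates 1 to 3, from 274, 157 and 597 reads. It had 379.5, 103 and 139 CPM in Pm-Tbr MASO replicates 1 to 3, from 6508, 3074 and 2491 reads. The lowest knockdown library was well above the highest control, and Pm-Tbr MASO replicate 1 stood far above the other 2 libraries of its group. The group means were 13.3 ± 9.30 and 207 ± 150 CPM (SD, n = 3 per group), and the fitted rise was 15.5-fold (log2 fold change 3.96 ± 0.68 SE, edgeR adjusted p = 0.0332). Within pairs 1, 2 and 3 the ratio was 36.1, 17.8 and 5.87, so every pair rose and pair 3 least. With the replicate block the log2 fold change was the same to 2 decimals (3.96 ± 0.50, adjusted p = 0.00719). The rise missed the threshold when any 1 of the 6 libraries was left out, with adjusted p from 0.0570 to 0.138. Its log2 fold change was then 3.16 without Pm-Tbr MASO replicate 1 and 4.66 without control MASO replicate 3, and lay between these without any of the other libraries. Without control MASO replicate 1 or 2, 0 of all loci passed.

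The other late H2B locus, Pm-Lhh2ba on scaffold 9974 from 1916 to 8848 on the plus strand, showed a high value in only 1 library. It had 2.61, 0.661 and 1.11 CPM in the control MASO libraries and 27.5, 2.07 and 1.06 CPM in the Pm-Tbr MASO libraries. Replicate 1 of the knockdown was the high one, and the other knockdown libraries lay within the control range. The log2 fold change of 2.80 ± 1.16 SE did not pass (adjusted p = 0.230). Leaving out the high library brought it to 0.09. On the opposite strand it shares 5959 bases with Pm-Gpr161, named for an orphan G protein-coupled receptor, which was also highest in Pm-Tbr MASO replicate 1 (22.5 CPM, against 3.86 to 8.82 CPM in the other libraries). The strand setting of the counting is not given, so reads of the pair cannot be told apart.

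Pm-Lhh2af, the late H2A gene (gene model PMI_005699), lies next to Pm-Lhh2bj on scaffold 3012, from 38012 to 40865 on the minus strand. The facing ends of the 2 loci, which point away from each other, are 261 bases apart. Pm-Lhh2af had 3.99, 1.73 and 2.42 CPM in the control MASO libraries and 93.0, 92.9 and 5.31 CPM in the Pm-Tbr MASO libraries. Its high libraries were thus Pm-Tbr MASO replicates 1 and 2, while replicate 3 lay only just above the highest control. The log2 fold change was 4.55 ± 0.96 SE and missed the threshold (adjusted p = 0.0520); with the replicate block it was 3.96 ± 0.86 and passed (adjusted p = 0.0312). Without Pm-Tbr MASO replicate 3 the value was 5.09 and passed (adjusted p = 0.0260). The within-pair ratios were 23.3, 53.8 and 2.19, so pair 3 was again the smallest.

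The third late histone on scaffold 3012 is Pm-LhH3g, an H3 name carried by a locus that also holds Pm-Slinky (gene models PMI_005698 and PMI_005697), from 11241 to 40496 on the plus strand. This merged locus overlaps Pm-Lhh2af by 2485 bases on the opposite strand, and its reads may belong to either of its names. It had 1.99, 1.25 and 1.23 CPM in the control MASO libraries and 3.44, 3.91 and 2.12 CPM in the Pm-Tbr MASO libraries. The groups did not overlap, but all 6 values were low, from 31 to 117 reads per library. Its log2 fold change of 1.08 ± 0.41 SE did not pass (adjusted p = 0.191; adjusted p = 0.0926 with the replicate block). The remaining loci of the authors' table on that scaffold moved less. Pm-Mpst, named for a sulfurtransferase and lying 2979 bases beyond Pm-Lhh2bj, had a log2 fold change of 0.14, and 2 loci without a name had 0.77 and -0.03, none of which passed. On this scaffold only Pm-Lhh2bj passed without the block, and Pm-Lhh2af joined it with the block.

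**Figure D2:**
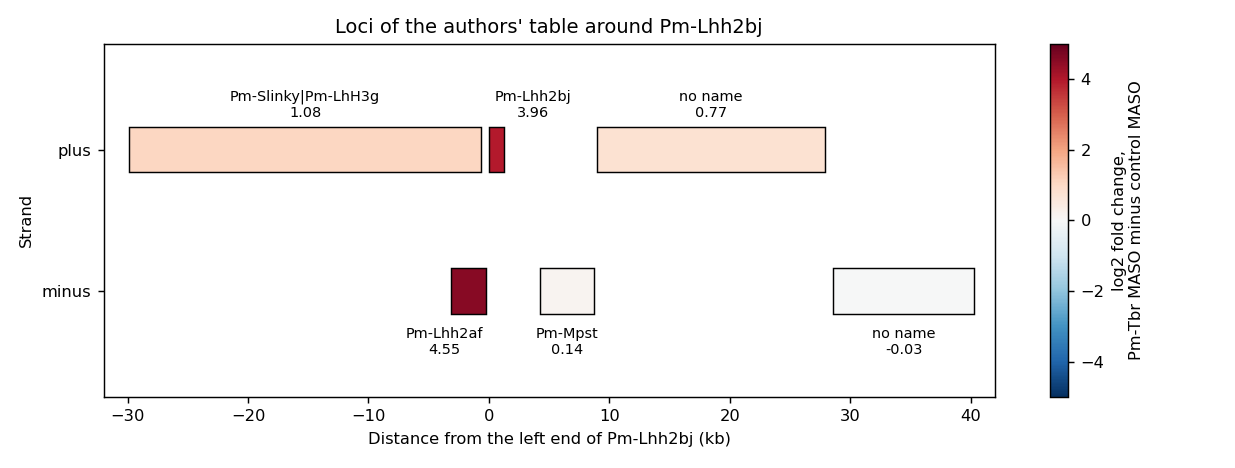
Loci of the authors' table around Pm-Lhh2bj, drawn to scale by distance in kilobases from its left end, with the strand on the vertical axis and the log2 fold change (Pm-Tbr MASO minus control MASO) as colour and number. Pm-Lhh2bj and Pm-Lhh2af, at 3.96 and 4.55, stand side by side on opposite strands, with Pm-Mpst at 0.14 on the right.

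The H3 locus Pm-LhH3h ran the other way. It lies on scaffold 4093 from 39545 to 47422 on the minus strand (gene model PMI_007894), and had 673, 447 and 501 CPM in the control MASO libraries. In the Pm-Tbr MASO libraries it had 535, 168 and 316 CPM. The groups overlapped through Pm-Tbr MASO replicate 1, yet the value was lower in all 3 pairs, as at 25.7% of all tested loci. The log2 fold change was -0.67 ± 0.39 SE and did not pass (adjusted p = 0.392), nor with the replicate block (-0.80 ± 0.25, adjusted p = 0.0882). No other locus shares its position in the authors' table, and the nearest, named Pm-Top3A for a DNA topoisomerase, had a log2 fold change of 0.22 that did not pass.

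The 3 loci named Pm-LhH1a, a late linker histone, gave 3 different patterns. The locus on scaffold 5351 from 42354 to 42639 on the minus strand (gene model PMI_012045) spans 286 bases and has no overlapping neighbour in the authors' table. It had 0.767, 0.808 and 4.01 CPM in the control MASO libraries, from 20, 22 and 101 reads. It had 40.2, 16.55 and 22.0 CPM in the Pm-Tbr MASO libraries, from 690, 495 and 393 reads. All knockdown libraries were high, and among controls replicate 3 was the highest, as it was at Pm-Lhh2bj. The rise was 14.1-fold (log2 fold change 3.82 ± 0.71 SE, edgeR adjusted p = 0.0389; 4.07 ± 0.60 and adjusted p = 0.0102 with the replicate block), with within-pair ratios of 52.5, 20.5 and 5.48. It passed without control MASO replicate 3 (log2 fold change 5.04, adjusted p = 0.0438) and missed the threshold without any 1 of the other 5 libraries, with adjusted p from 0.0691 to 0.161. Among these settings, those without control MASO replicate 1 or 2 had 0 calls over all loci.

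A second Pm-LhH1a locus, merged with Pm-Dhx40_1, a helicase name, lies on scaffold 9666 from 22951 to 28231 on the minus strand. It had 15.9, 17.3 and 6.64 CPM in the control MASO libraries and 230.5, 43.7 and 26.1 CPM in the Pm-Tbr MASO libraries. The groups did not overlap, and most of the difference in means came from Pm-Tbr MASO replicate 1. The log2 fold change was 2.91 ± 0.81 SE and did not pass (adjusted p = 0.1003), was 1.38 without that library, and passed with the replicate block (2.37 ± 0.47, adjusted p = 0.0247). A plus-strand locus named Pm-Dhx40_1 alone, which overlaps it by 4321 bases, had a log2 fold change of -0.10. The third Pm-LhH1a locus, on scaffold 1849 from 25504 to 32953 on the minus strand (gene model PMI_009298), had 93.5, 77.1 and 74.9 CPM in the control MASO libraries and 101, 42.5 and 45.2 CPM in the Pm-Tbr MASO libraries. Its groups overlapped, with Pm-Tbr MASO replicate 1 the highest of all 6 and the other 2 knockdown libraries the lowest. Its log2 fold change of -0.38 ± 0.35 SE did not pass (adjusted p = 0.601). This locus overlaps Pm-Sgsm3 by 5270 bases on the opposite strand. In edgeR's quasi-likelihood test, one name therefore covered a locus that rose in both fits, one that rose in the fit with the block, and one that passed in neither.

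**Figure D3:**
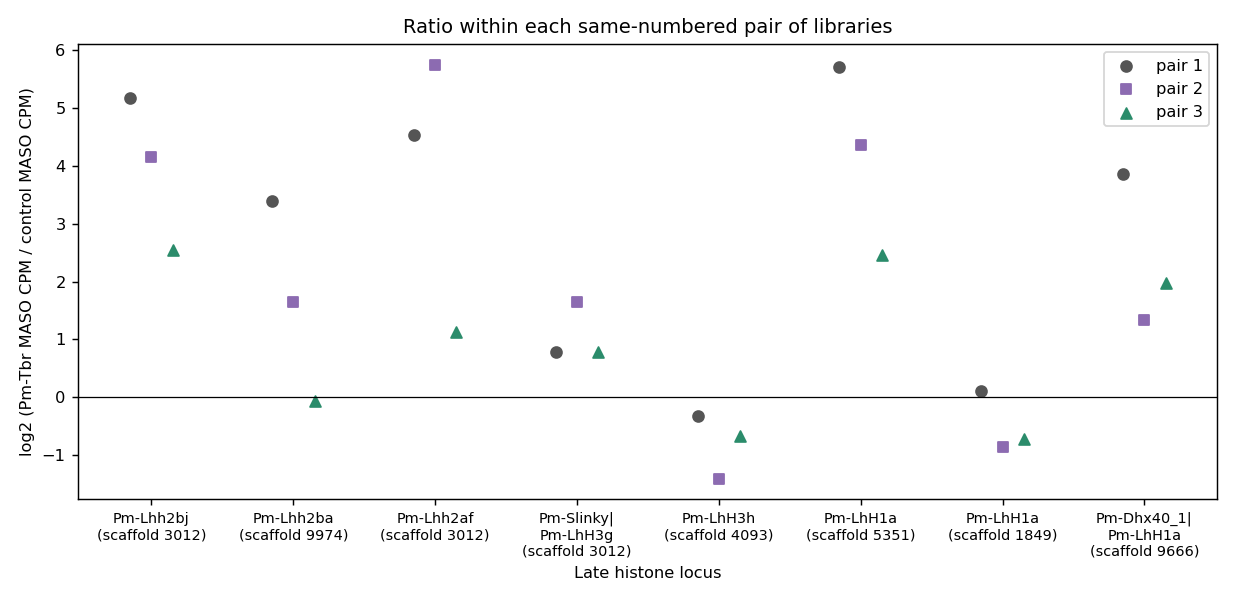
Log2 ratio of Pm-Tbr MASO to control MASO CPM within each same-numbered pair of libraries for the 8 late histone loci, where 0 marks equal values. Pair 3 gives the smallest rise at Pm-Lhh2bj (log2 ratio 2.55), Pm-Lhh2af (1.13) and Pm-LhH1a on scaffold 5351 (2.45), and all 3 pairs lie below 0 at Pm-LhH3h.

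Across the 6 libraries the late histone loci followed each other to different degrees. The log2 CPM of Pm-Lhh2bj and of Pm-LhH1a on scaffold 5351 had a Pearson r of 0.98, and that of Pm-Lhh2bj and Pm-LhH3h -0.37. The overlapping loci Pm-Lhh2af and Pm-LhH3g had 0.96, whereas the neighbours Pm-Lhh2af and Pm-Lhh2bj had 0.80. Pm-LhH3h and Pm-LhH1a on scaffold 1849, the 2 loci with negative fold changes, had 0.905 with each other. These values describe 6 libraries in 2 groups, which share their depth and group difference. Among 12391 named loci whose mean log2 CPM reached 1, the loci most like Pm-Lhh2bj were Pm-Psmg3, 2 loci of Pm-Mras, Pm-Syt6-2 and Pm-C5orf42L, with r from 0.989 to 0.995. For Pm-LhH1a on scaffold 5351 they were Pm-Mylip, Pm-Rnbn1L, Pm-Zizimin1, Pm-St6L and Pm-Lhh2bj itself, with r from 0.984 to 0.993.

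Summed over the 8 loci, late histone CPM was 802, 552 and 615 in the control MASO libraries and 1411, 473 and 557 in the Pm-Tbr MASO libraries. The sum was high in Pm-Tbr MASO replicate 1 only, and in the other knockdown libraries it lay near or below the lowest control. Its makeup differed between groups. Pm-LhH3h supplied 81.0% to 83.9% of the summed CPM in controls, but 38.0%, 35.6% and 56.7% in replicates 1 to 3 of the knockdown. The other 7 loci together had 105 to 129 CPM in controls and 875, 304 and 241 CPM in Pm-Tbr MASO replicates 1 to 3.

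**Figure D4:**
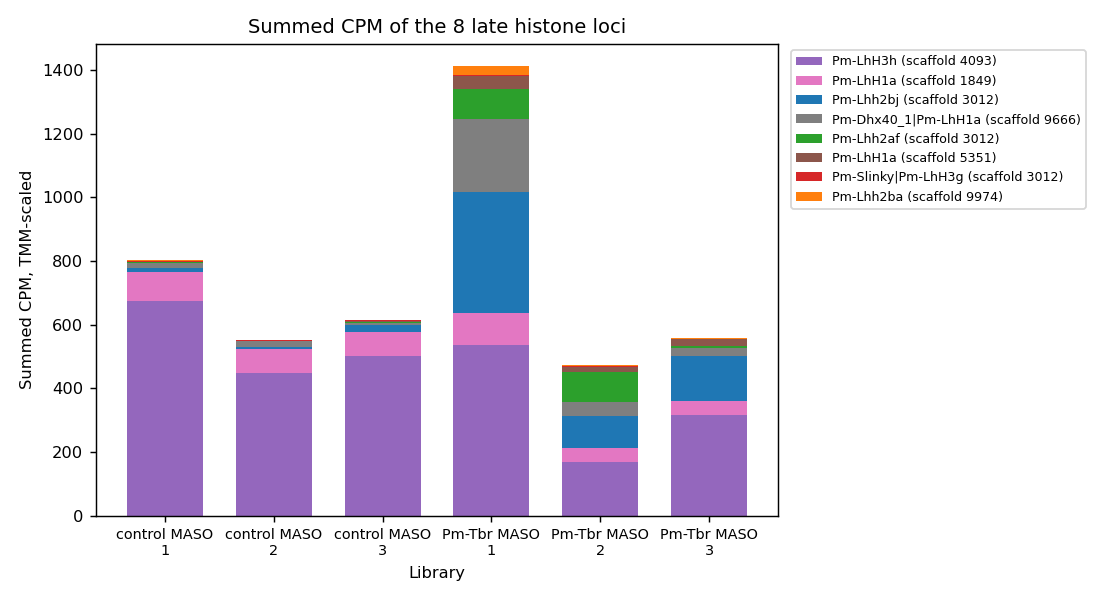
TMM-scaled CPM of the 8 late histone loci stacked for each library, 1 colour per locus. Pm-LhH3h fills most of each control bar (81.0% to 83.9%). Pm-Lhh2bj, Pm-Lhh2af and Pm-LhH1a on scaffolds 5351 and 9666 take a larger part of each Pm-Tbr MASO bar than of control bars. The Pm-LhH1a locus on scaffold 1849 takes a smaller part. The Pm-Tbr MASO total is highest in replicate 1 at 1411 CPM.

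Other histone names did not pass in the test without the block. The first naming rule gave 4 such loci, namely 2 of Pm-H1-0, Pm-Hist2h3d and the early H4 name Pm-EhH4_64, and edgeR called 0 of them with or without the block, as did DESeq2, with 1 of the 4 at an unadjusted p under 0.05 (8832 of 44120 over all loci). Adding the prefixes Clvh, Hm and HH, after the table had been seen, gave 11 loci, of which 0 were called without the block and 2 rose with it, where 5.83% of all loci did. An unadjusted p under 0.05 was found at 6 of the 11 (8832 of 44120 over all loci), and DESeq2 called 2 higher and 1, Pm-HH2az, lower (9.71% of all loci in either direction). The 2 that rose with the block bear names of cleavage-stage histones. Pm-ClvhH1 had 133, 394 and 279 CPM in the control MASO libraries and 1425, 1371 and 512 CPM in the Pm-Tbr MASO libraries (log2 fold change 2.04 ± 0.49 SE, adjusted p = 0.0719; adjusted p = 0.0369 with the block). Pm-ClvhH2b had 4.95, 9.84 and 21.5 CPM against 35.3, 50.6 and 27.6 CPM (log2 fold change 1.64 ± 0.51, adjusted p = 0.127; adjusted p = 0.0485 with the block). In both, no libraries overlapped between groups and pair 3 differed least. Pm-EhH4_64 also did not overlap (3.62 to 4.83 against 7.12 to 7.77 CPM) but passed in neither fit (adjusted p = 0.174, and 0.1005 with the block). Pm-HH2az, named for the replication-independent variant H2A.Z, had 5862 to 7777 CPM in controls and 3333 to 3902 CPM in Pm-Tbr MASO libraries, and its log2 fold change of -0.84 ± 0.21 passed in neither fit (adjusted p = 0.0742 and 0.0554). The 2 loci of Pm-H1-0, a replacement linker histone, had log2 fold changes of -0.39 and -0.32, and Pm-HH3cid, named for the centromeric H3, had -0.14, with overlapping groups. Loci of Pm-HmH2a.1 passed in neither fit. On scaffold 5328 that name had 77.7 to 152.5 CPM in controls and 39.7 to 74.2 CPM in Pm-Tbr MASO libraries, without overlap. Its log2 fold change there was -0.82, against -0.82 on scaffold 20184 and 0.89 on scaffold 5843, where groups overlapped. Over the 11 loci the median log2 fold change was -0.18, against 2.86 over the 8 late loci and 0.01 over all tested loci. This contrast is a description, because some late loci needed Pm-Tbr MASO libraries to be named, which tested loci in general did not. Pm-Lhh2ba, close to the late median at 2.80, was high in only 1 library.

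**Figure D5:**
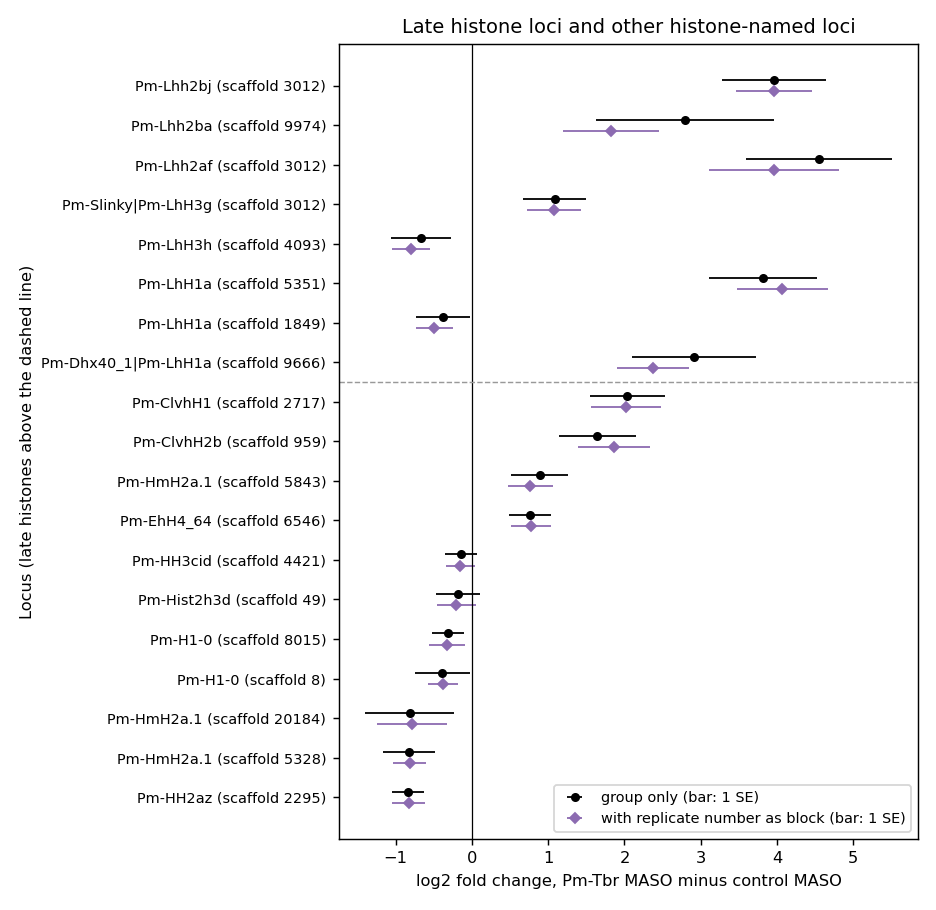
Log2 fold change (Pm-Tbr MASO minus control MASO) with a bar of 1 SE for the 8 late histone loci, above the dashed line, and the 11 other histone-named loci, below it. Black circles are from the fit with group only and purple diamonds from the fit with the replicate number as a block; Pm-ClvhH1 and Pm-ClvhH2b, at 2.04 and 1.64, lead the other histones and Pm-HH2az, at -0.84, is last.

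Genes that process histone mRNA, carry histones or copy DNA had mostly negative log2 fold changes, unlike Pm-Lhh2bj. Of 9 loci for histone mRNA processing, edgeR called 0 in either fit and DESeq2 called 0, with 4 of the 9 at an unadjusted p under 0.05 (8832 of 44120 over all loci), and the median log2 fold change was -0.61. Among them is Pm-Slbp, the protein that binds the histone stem-loop. Its most read locus had 45.9, 70.2 and 60.7 CPM in the control MASO libraries and 34.8, 33.2 and 38.6 CPM in the Pm-Tbr MASO libraries. The groups did not overlap there, but the test was not passed (edgeR adjusted p = 0.133 for a log2 fold change of -0.73). The remaining Pm-Slbp loci, on scaffold 17709 and further along scaffold 8867, had overlapping groups and log2 fold changes of -0.67 and 0.13. Of 31 histone chaperone loci 1 fell and 0 rose, where 0.922% of all tested loci fell, and with the block 6 fell and 0 rose, where 4.26% of all loci fell. Pm-Set, a chaperone that binds core and linker histones, fell from 900.5, 697 and 741 CPM to 279, 203 and 307 CPM (log2 fold change -1.57 ± 0.23 SE, adjusted p = 0.0271). Without control MASO replicate 1, or without replicate 2, edgeR called 0 loci of any kind, Pm-Set and the markers below included, with 8561 and 6886 loci at an unadjusted p under 0.05. The others lower with the block were both loci of Pm-Ssrp1, Pm-Hirha and 2 loci of Pm-Chaf1a, among which the last is named for the chaperone that loads new nucleosomes behind the replication fork. Of 93 loci for DNA replication and S phase 0 were called without the block, and with it 11 fell and 1 rose, where 4.26% of all loci fell and 5.83% rose. An unadjusted p under 0.05 was found at 22 of the 93, a share near that of 8832 of 44120 over all loci, and DESeq2 called 5 lower and 1 higher, below the 9.71% of all loci called in either direction. E2F3, a regulator of S phase entry, gave the smallest adjusted p without the block at Pm-E2f3 (log2 fold change -1.81 ± 0.38 SE, adjusted p = 0.0532; adjusted p = 0.00887 with the block), and Pm-Rfc5, a clamp loader subunit, was the locus that rose with it. The median log2 fold change of the 93 loci was -0.29, and 73 of the 93 values were negative, against 21795 of 44120 over all tested loci. Several loci in these gene lists share a name, such as Pm-Top2b, Pm-Mcm3 and Pm-Slbp, so the counts are of loci and not of separate genes.

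Summed markers of egg RNA were higher in the Pm-Tbr MASO group, as were the late histones that rose with or without the block. The order of libraries within groups differed from the egg sum at some of these loci only. The egg sum was highest in Pm-Tbr MASO replicate 2 and control MASO replicate 1. Pm-Lhh2bj and Pm-LhH1a on scaffold 5351 were highest in Pm-Tbr MASO replicate 1 and control MASO replicate 3. The Pm-LhH1a locus on scaffold 9666 was highest in Pm-Tbr MASO replicate 1 and control MASO replicate 2. Pm-Lhh2af was close to the egg order, with control MASO replicate 1 highest at 3.99 CPM. Its knockdown libraries had 93.0, 92.9 and 5.31 CPM, and the egg sum was likewise lowest in the third. Of 13 loci of egg names (Pm-Ebr1, Pm-Vtgn1, Pm-Vtgn2 and Pm-Vasa) 5 rose and 0 fell, where 1.36% of all loci rose, and their summed CPM was 3381 to 5600 in control MASO libraries and 9132 to 14341 in Pm-Tbr MASO libraries. No defining marker of that list was at 0 in any library. Most of this sum came from 1 locus of Pm-Ebr1, which had 2646 to 4845 CPM in controls and 11150, 13014 and 8004 CPM in Pm-Tbr MASO replicates 1 to 3. Without both loci of Pm-Ebr1, a sum chosen after its values were seen, the other 11 loci had 628 to 692 CPM in controls and 902 to 1037 CPM in Pm-Tbr MASO libraries. The 4 loci of Pm-Vasa passed in neither fit. Summed CPM of the 8 cilia loci was 1999 to 2083 in controls and 960.1 to 1252 in Pm-Tbr MASO libraries, with 2 loci that fell, where 0.922% of all loci did. Of the ectoderm markers 2 of 4 fell, with sums of 193 to 226 CPM in controls and 24.5 to 71.5 CPM in Pm-Tbr MASO libraries. Of the vegetal markers 2 of 7 fell, with 1881 to 2099 against 1172 to 1299 CPM, and of the mesoderm markers 1 of 7 fell, with 752 to 894 against 591 to 651 CPM. The mesoderm loci split, with 4 positive and 3 negative log2 fold changes and a median of 0.19, so their sum does not describe most of them. With the block 7 of 8 cilia, 4 of 4 ectoderm, 4 of 7 vegetal and 2 of 7 mesoderm loci fell, where 4.26% of all loci did. With it 9 of 13 egg loci rose, where 5.83% of all loci did. Of the 5 neuron markers edgeR called 0 in either fit and DESeq2 called 0, with 1 at an unadjusted p under 0.05, and their sums overlapped (44.3 to 73.1 against 49.3 to 65.2 CPM). The part of these markers in the late histone values was not tested.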

How the data were processed

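RNA from pooled embryos was sequenced in 6 libraries, 3 per group. The submitters' processing notes list HTSeq 0.6.1p1, TopHat2 2.0.12, edgeR 3.10.5, Cufflinks 2.2.1, CASAVA 1.8 and SAMtools; build and strand setting were not given in the sources used here. As deposited by the authors, the files held whole-number counts per locus for 80165 loci, and 5 summary lines per file, 49.0% to 50.6% of all lines' counts, were left out. The authors' deposited table of their own comparison gives log2 fold changes, F scores and p-values, and the F scores were not used; its 27630 loci are those whose CPM exceeded 2 in 3 or more libraries, and it supplied names and positions.

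Counts were tested here with edgeR 4.0.16 in R 4.3.3 (filterByExpr, 44120 loci kept; TMM; quasi-likelihood fit on group; Benjamini-Hochberg over all kept loci; threshold 0.05). SE is the log2 fold change divided by the root of F. Correlations used log2 CPM with a prior count of 2. No libraries were duplicates. Deviations from group means correlated at 0.53, 0.22 and 0.56 in same-numbered libraries of different groups and at -0.47 to -0.05 otherwise, so the numbers were taken as pairs and a replicate block was fitted as an alternative. Other alternatives were DESeq2 1.42.0, edgeR's exact test, other scalings and filters, each library left out, and each pair alone; their effect is given in the closing section. The procedure was tested on simulated data.

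All late histone loci were named, with their scaffold neighbours, other histone names (values for those called and up to 6 others), the 4 loci of smallest adjusted p per gene list (of which some are given only by count) and the 5 loci most like a member, given for Pm-Lhh2bj and Pm-LhH1a on scaffold 5351; those of the other members are not reported here. The members and lists were chosen with earlier results of these data known. The transcript of Tbr itself was not analysed here.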

Additional observations from a re-analysis of the deposited data

How the results depend on the processing

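Calls over all loci numbered 1008 and were 4110 with DESeq2, 3394 with edgeR's exact test, 4455 with the replicate block, 2944 at an adjusted p under 0.10 and 6534 with DESeq2 and the replicate block, a setting added after seeing the data; leaving out 1 library gave 0 to 418. The 0 arose without control MASO replicate 1 or 2, where edgeR had 8561 and 6886 loci at an unadjusted p under 0.05. Of the late histone loci, and of all histone loci by the first naming rule, 2 were called, and 4 with DESeq2, the exact test or the replicate block, 6 with DESeq2 and the block, and 0 to 1 with a library left out, a setting that lowers the number of samples. The other scalings also gave 2, while no filter, the CPM filter and an adjusted p under 0.10 each gave 3. Calls over all loci were 1002 to 1009 with the other scalings, 1150 with no filter and 1449 with the CPM filter. Pm-Lhh2af passed with DESeq2 (log2 fold change 4.55), the exact test (4.55), no filter (4.49), the CPM filter (4.59), the replicate block (3.96) and DESeq2 with the block (3.96). The Pm-LhH1a locus merged with Pm-Dhx40_1 passed with DESeq2 (2.93), the exact test (2.91), the replicate block (2.37) and DESeq2 with the block (2.36). Pm-LhH3h (-0.80) and Pm-Lhh2ba (1.74) passed only with DESeq2 and the block; DESeq2 without the block gave Pm-Lhh2ba no adjusted p. The cause of these differences was not tested. With a library left out, values ranged from 3.16 to 4.66 for Pm-Lhh2bj, 3.34 to 5.04 for Pm-LhH1a on scaffold 5351 and 4.16 to 5.09 for Pm-Lhh2af. Single pairs moved furthest from the fit at 2.55 (Pm-Lhh2bj, pair 3), 1.13 (Pm-Lhh2af, pair 3), 5.71 (Pm-LhH1a on scaffold 5351, pair 1), 1.34 (the Pm-Dhx40_1 locus, pair 2), 1.65 (Pm-LhH3g, pair 2), -1.41 (Pm-LhH3h, pair 2) and -0.067 (Pm-Lhh2ba, pair 3). Of these, Pm-Lhh2ba in pair 3 lay on the other side of 0 from its fit. In edgeR the replicate block changed no call of a late histone locus other than Pm-Lhh2af and the Pm-Dhx40_1 locus. Counts of 18 to 68 in the controls limit Pm-Lhh2ba, and 31 to 117 in all libraries limit Pm-LhH3g.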
